A study of Mus musculus with 6 samples.

Results

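The expression of 10 nuclear genes was followed in the mouse retina: Opa1, Mfn1, Mfn2, Dnm1l, Slc25a46, Opa3, Afg3l2, Spg7, Tmem126a and Rtn4ip1. They were listed by function, because each encodes a protein of mitochondrial shape, inner membrane upkeep or respiratory chain assembly, and because mutations of most of them cause optic atrophy in people. All 10 were found among the 55376 genes of the count table, and all 10 were among the 18547 genes with enough reads to be tested. The samples were whole retinas taken at postnatal day 240 from 3 WT and 3 Wfs1-KO mice, each from a different animal, and RNA-seq reads were counted per gene. The mutant mice carried a deletion of exon 8 of Wfs1 in every cell, while WT mice were wild type for that gene. The labels give the strain of both groups as C57x129, whereas the study's methods name a C57BL/6 J background. Retinal ganglion cells are a small share of a whole retina, and in such bulk samples fewer cells of a type and less RNA per cell cannot be told apart.

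Mitochondria divide and fuse continuously. Fusion joins the outer membranes through the mitofusins and the inner membranes through OPA1, a GTPase that also holds the cristae in shape, and fission is carried out by DRP1, the product of Dnm1l. Retinal ganglion cells send long axons through the optic nerve and are the cells lost when this balance fails in dominant optic atrophy. Wolfram syndrome also includes optic atrophy, but its gene, Wfs1, encodes a membrane protein of the endoplasmic reticulum, and the comparison asked whether transcripts of the mitochondrial genes differed in retinas without it.

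The start-site sequences of 3 members are shown because their promoters held a motif of a factor known to drive nuclear genes for mitochondria, and because Opa1 and Tmem126a are also the members that departed most, in opposite directions, in 1 mutant retina described further on. Each line gives the 100 bases before the start that RefSeq uses in build GRCm38.p6, read 5′ to 3′ on the gene's strand, with the motif match in capitals. For Opa1, chr16:29579234-29579333 on the plus strand, the capitals mark overlapping matches to the NRF1 motif on both strands.
Opa1: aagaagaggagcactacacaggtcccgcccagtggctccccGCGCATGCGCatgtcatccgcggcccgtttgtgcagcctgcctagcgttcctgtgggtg
For Mfn1, chr3:32529382-32529481 on the plus strand, they mark the ETS motif, and the stretch runs past the start of 32529465 in the deposited table.
Mfn1: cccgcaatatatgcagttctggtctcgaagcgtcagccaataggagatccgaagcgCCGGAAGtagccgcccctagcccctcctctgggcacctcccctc
For Tmem126a, chr7:90457204-90457303 on the minus strand, they mark the ETS motif too, and the stretch again runs past the deposited start, which is 90457229 on that strand.
Tmem126a: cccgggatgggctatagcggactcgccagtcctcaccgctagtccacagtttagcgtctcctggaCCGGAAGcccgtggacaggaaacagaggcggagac

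The search covered 4 motifs on both strands of a 300-base window around each start. The letters GCGCATGC for NRF1 were present in 2.71% of the 32851 mouse promoters, CCGGAAG for ETS factors in 8.86%, AAGATGG for YY1 in 6.34% and AAGGTCA for ERRA in 4.72%. RefSeq promoters were given for 8 of the 10 genes, as 11 windows, and the other 2 were Afg3l2 and Slc25a46. Beside the matches printed above, Tmem126a held the YY1 letters from position 19 after its start, and 1 of the Dnm1l windows held the ETS letters on the opposite strand from position 13. The ERRA letters were in none of the 11 windows, and the other windows held no match, which says only that these letters were not there. The GC content of the 11 windows was between 53.0% and 70.3%, against a median of 52.7% over all promoters. Their observed over expected CpG ratio was between 0.523 and 1.18, against a median of 0.384.

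Each level is a CPM value, the read count relative to the TMM-scaled size of its library, and each genotype difference is the log2 fold change of Wfs1-KO over WT from edgeR's quasi-likelihood test, with p-values adjusted over all tested genes by the Benjamini-Hochberg method. Wfs1 was read first as a check of the labels. It stood at 64.9, 61.3 and 69.9 CPM in WT replicates 1, 2 and 3, and at 9.62, 0.898 and 11.5 CPM in Wfs1-KO replicates 1, 2 and 3. Every mutant retina was below every WT retina, with a log2 fold change of -3.15 (standard error, SE, 0.77, with an edgeR adjusted p of 0.979). Without Wfs1-KO replicate 2 it was -2.64 (SE 0.16, with an edgeR adjusted p of 2.84e-05), and DESeq2 gave it an adjusted p of 0.00092 with the 6 retinas together.

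Total counts ranged from 17916885 to 101334381 per library. The library of Wfs1-KO replicate 2 stood apart: its mean correlation of log2 CPM with the other 5 was 0.918, against 0.962 to 0.971 for the others. In that retina the summed CPM of 10 microglia and macrophage markers was 312 against 41.5 to 63.1 in the other 5, and that of 12 pigment epithelium markers was 512 against 64.3 to 185. The sum of 8 Mueller glia markers was 7615 CPM there against 5205 to 6389.8, that of 10 skeletal muscle markers was 55.2 against 16.1 to 26.1 with Myh1, Myh2, Myh4 and Tnnt3 at 0 in some libraries, and that of 20 lens markers, of which 8 passed the filter, was 14.8 against 2.84 to 6.03. Other lists also stood outside the range of the other 5 retinas, cone and myelin markers above it and amacrine and horizontal cell markers below it. All 14 retinal ganglion cell markers were measured, none passed the adjusted threshold in edgeR's test (1 was lower at an unadjusted p under 0.05), and their sum was 1314 to 1529 CPM in WT and 1171 to 1755 CPM in Wfs1-KO, the highest being replicate 2. WT replicate 3 had 4 counts of Xist and 1137 of the Y-linked Ddx3y, while the other 5 retinas had 0 to 2 of Ddx3y, so that it was the only male. The part of these differences in the values that follow was not tested, so values are given with and without Wfs1-KO replicate 2.

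None of the 10 genes passed the test for a difference between genotypes. On all 6 retinas 0 of 10 passed an adjusted p of 0.05 in edgeR, against 0.0108% of all tested genes, and 0 of 10 had an unadjusted p under 0.05, against 2.81%. Without Wfs1-KO replicate 2 the counts were again 0 of 10 at both levels, against 0.125% and 5.19% of all tested genes, and with DESeq2 on 6 retinas 0 of 10 were called against 0.246%. The median log2 fold change of the members was -0.01, with 5 of 10 above 0. Over all tested genes it was 0.02, with 9791 of 18547 above 0. Without Wfs1-KO replicate 2 the members' median was -0.05, with 2 of 10 above 0, beside a median of -0.00038 over all genes of that fit.

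**Figure D1:**
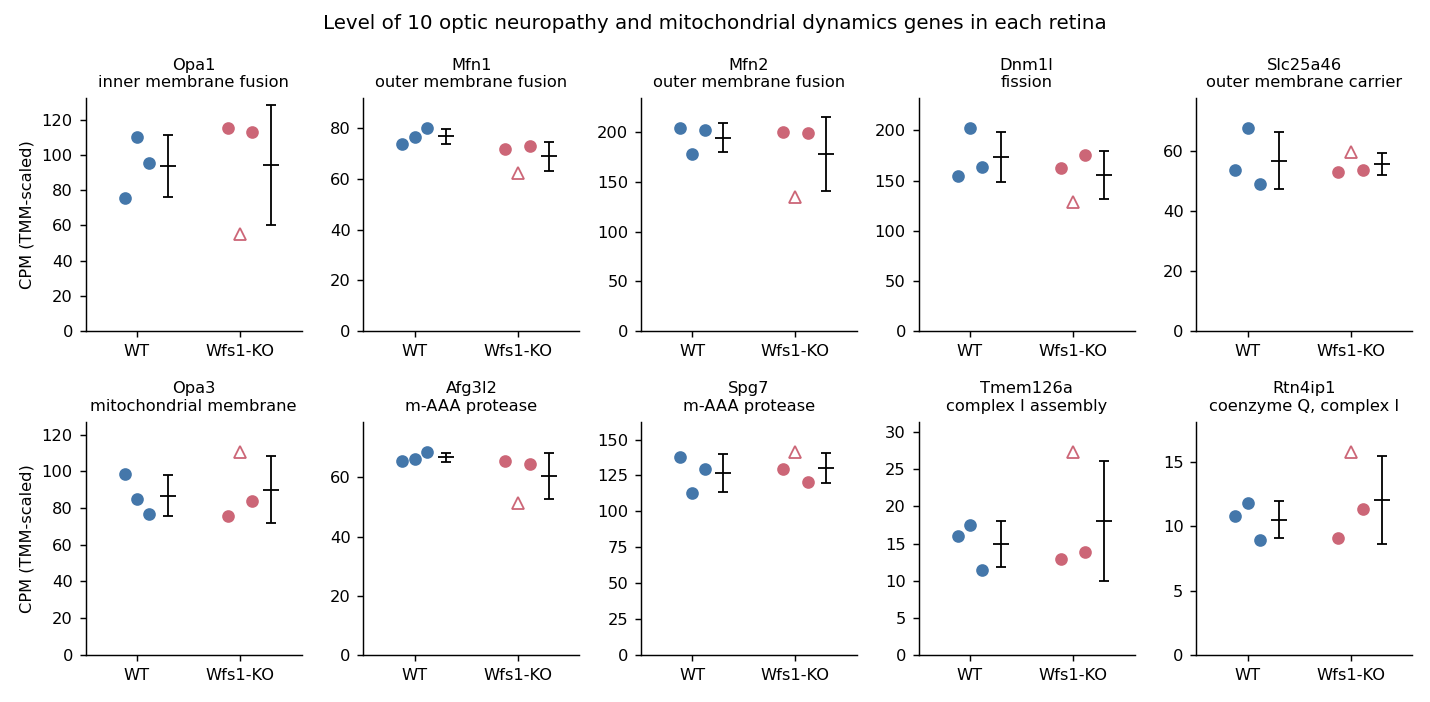
CPM of the 10 genes in each retina, with WT in blue, Wfs1-KO in red, Wfs1-KO replicate 2 as an open triangle and the bar giving the group's mean ± SD (n = 3). The triangle is the lowest point for Opa1, Mfn1, Mfn2, Dnm1l and Afg3l2 and the highest for Opa3, Spg7, Tmem126a and Rtn4ip1, and without it the genotypes overlap for 7 of the 10.

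Opa1, the inner membrane fusion GTPase of dominant optic atrophy, lies at chr16:29579334-29654884 of mm10 on the plus strand and has 6284 exon bases, the longest of the 10. It had 75.4, 110.5 and 95.6 CPM in WT and 115, 54.9 and 113 CPM in Wfs1-KO retinas. Replicates 1 and 3 of the mutant were the highest of all 6 retinas and replicate 2 the lowest, so the group means nearly coincided, at 93.8 ± 17.6 and 94.4 ± 34.2 CPM (SD, n = 3 each). The log2 fold change was 0.0089, with a 95% interval from -0.72 to 0.73 (adjusted p = 0.998 from edgeR). Without Wfs1-KO replicate 2 it was 0.28, with an interval from -0.08 to 0.64 (adjusted p = 0.966), the largest difference among the members in that fit.

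The mitofusins tether and fuse outer membranes, and Mfn2, whose mutations cause Charcot-Marie-Tooth neuropathy that can include optic atrophy, also lies at contacts with the endoplasmic reticulum. Mfn1 (chr3:32529465-32579239, plus strand) had 73.8, 76.4 and 79.9 CPM in WT and 71.6, 62.3 and 72.7 CPM in Wfs1-KO retinas. All mutant values were below all WT values, but replicate 3 of the mutant and replicate 1 of WT were nearly level. Its log2 fold change was -0.15, with an interval from -0.52 to 0.21 (adjusted p = 0.979 from edgeR), and -0.09 without Wfs1-KO replicate 2. Mfn2 (chr4:147873599-147904704, minus strand) had 204, 177 and 202 CPM in WT and 199.6, 135 and 199 CPM in Wfs1-KO retinas, so that replicates 1 and 3 of the mutant lay inside the WT range. The log2 fold change of Mfn2 was -0.13, with an interval from -0.61 to 0.35 (adjusted p = 0.979 from edgeR), and 0.03 without Wfs1-KO replicate 2.

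Fission was represented by Dnm1l, which encodes the dynamin-related GTPase that constricts mitochondria and is itself mutated in some families with dominant optic atrophy. Dnm1l (chr16:16312230-16358959, minus strand) had 155, 202 and 163 CPM in WT and 163, 129 and 175 CPM in Wfs1-KO retinas. Only replicate 2 of the mutant was outside the WT range. The log2 fold change was -0.16, with an interval from -0.62 to 0.31 (adjusted p = 0.979 from edgeR), and -0.04 without Wfs1-KO replicate 2. Of its exon bases 243 (5.36%) overlap Gm49521 on the opposite strand, and the strand setting of the counting was not given in the sources used here.

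Slc25a46 encodes an outer membrane member of the mitochondrial carrier family that takes part in fusion and fission, and Opa3 encodes a membrane protein mutated in optic atrophy with cataract. For Slc25a46 (chr18:31580168-31609902, minus strand) the values were 53.6, 67.4 and 49.1 CPM in WT and 52.9, 59.6 and 53.7 CPM in Wfs1-KO retinas. All mutant retinas lay inside the WT range, and the log2 fold change was -0.03, with an interval from -0.46 to 0.39 (adjusted p = 0.985 from edgeR), and -0.10 without Wfs1-KO replicate 2. It was the only member for which Wfs1-KO replicate 2 was neither the lowest nor the highest retina, and 374 of its exon bases (8.56%) overlap B930094E09Rik on the opposite strand. Opa3 (chr7:19228334-19256543, plus strand) had 98.7, 84.7 and 76.7 CPM in WT and 75.7, 110.5 and 83.8 CPM in Wfs1-KO retinas, with both ends of the range in the mutant. Its log2 fold change was 0.05, with an interval from -0.43 to 0.53 (adjusted p = 0.981 from edgeR), and -0.13 without Wfs1-KO replicate 2.

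Afg3l2 and Spg7 encode subunits of the m-AAA protease, which degrades and processes proteins of the inner membrane. Both are linked to ataxia or spastic paraplegia with optic atrophy in some patients. Afg3l2 (chr18:67404764-67449172, minus strand) had 65.6, 66.2 and 68.6 CPM in WT and 65.4, 51.5 and 64.5 CPM in Wfs1-KO retinas. WT retinas had 66.8 ± 1.58 CPM (SD, n = 3), the smallest coefficient of variation of the members in WT, 2.36%. The mutant retinas were all below the lowest WT value, although replicates 1 and 3 came close to it. The log2 fold change of Afg3l2 was -0.14, with an interval from -0.53 to 0.25 (adjusted p = 0.979 from edgeR), and -0.05 without Wfs1-KO replicate 2. Spg7 (chr8:123062988-123097760, plus strand) had 138, 113 and 129 CPM in WT and 129, 141 and 120.3 CPM in Wfs1-KO retinas, which overlapped. Its log2 fold change was 0.04, with an interval from -0.35 to 0.43 (adjusted p = 0.982 from edgeR), and -0.03 without that retina.

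Tmem126a and Rtn4ip1 are genes of recessive optic atrophy, the first for a factor of respiratory complex I assembly and the second for a reductase linked to coenzyme Q synthesis and complex I. Tmem126a (chr7:90450700-90457229, minus strand), with 799 exon bases the shortest member, had 16.0, 17.5 and 11.4 CPM in WT and 12.99, 27.3 and 13.8 CPM in Wfs1-KO retinas. Replicate 2 of the mutant was far above the other 5 retinas, and the other mutant retinas lay inside the WT range. The log2 fold change of Tmem126a was 0.27, with an interval from -0.52 to 1.05 (adjusted p = 0.979 from edgeR), the widest of the 10, and -0.17 (interval -0.61 to 0.26) without that retina. Rtn4ip1 (chr10:43901807-43947862, plus strand) had 10.8, 11.8 and 8.96 CPM in WT and 9.07, 15.8 and 11.3 CPM in Wfs1-KO retinas, again with replicate 2 of the mutant as the only value outside the WT range. Its log2 fold change was 0.20, with an interval from -0.41 to 0.80 (adjusted p = 0.979 from edgeR), and -0.06 without that retina. The 6 libraries held between 158 and 935 counts of Rtn4ip1 and between 201 and 1339 of Tmem126a, the lowest counts of the members.

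The intervals bound how large a difference these retinas could have hidden. On all 6 retinas the 95% intervals of 9 of the 10 genes lay within 2-fold in either direction, against 52.3% of all tested genes, and their bounds reached from 0.609-fold to 2.08-fold. The exception was Tmem126a. Without Wfs1-KO replicate 2 all 10 lay within 2-fold, against 69.3% of all tested genes in that fit, and the bounds reached from 0.655-fold to 1.55-fold. The median standard error of the members was 0.20 on the log2 scale, and 0.15 without that retina, beside 0.31 and 0.20 over all tested genes. For 7 of the 10 genes the genotype difference was smaller than the SD of log2 CPM among WT retinas, the others being Mfn1, Mfn2 and Afg3l2. Leaving out a WT library could widen the intervals past 2-fold. On the log2 scale that of Opa1 reached -1.01 without WT replicate 1 and 1.06 without WT replicate 2. In the latter fit Rtn4ip1 reached 1.04 and Tmem126a 1.40.

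**Figure D2:**
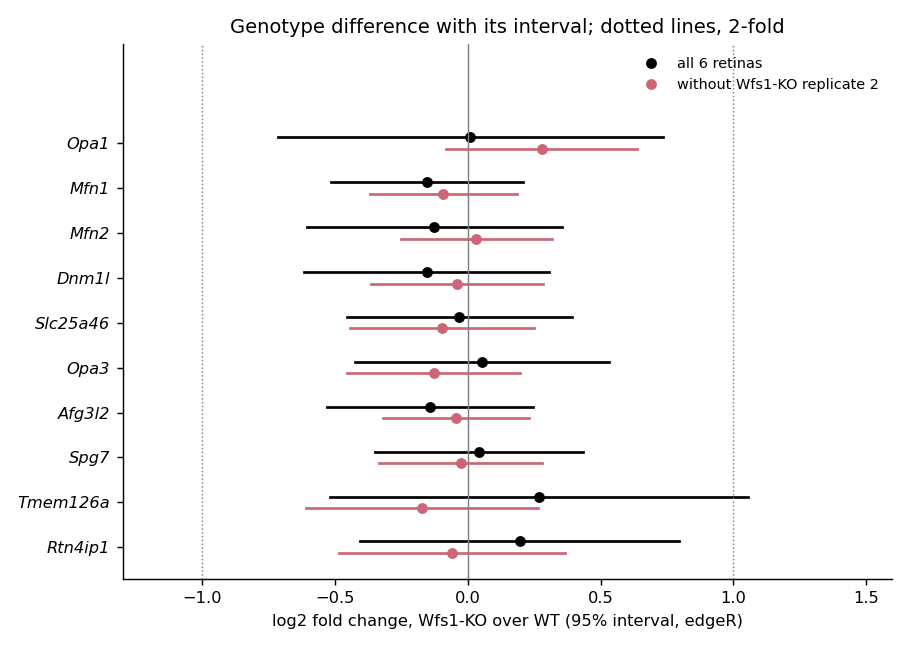
Log2 fold change of Wfs1-KO over WT for each gene with its 95% interval from edgeR, on all 6 retinas in black and without Wfs1-KO replicate 2 in red, with dotted lines at 2-fold. All 20 intervals cross 0, and the only one that passes a 2-fold line is that of Tmem126a on 6 retinas, which reaches 1.05.

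Genotypes did not overlap in CPM for 2 of the 10 genes, Mfn1 and Afg3l2, both lower in the mutant, against 8.96% of all tested genes. Without Wfs1-KO replicate 2 they did not overlap for 3 of the 10, against 22.4% of all tested genes, since Opa1 then joined as higher in the mutant, at 113 and 115 CPM against at most 110.5 CPM in WT. None of these separations passed edgeR's test.

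Wfs1-KO replicate 2 held the lowest value of 5 members (Opa1, Mfn1, Mfn2, Afg3l2 and Dnm1l) and the highest of 4 (Opa3, Spg7, Tmem126a and Rtn4ip1), so it was at an end of the range for 9 of 10, while it was at an end for 75.2% of all tested genes. Its log2 CPM minus the mean of the other 5 retinas was -0.87 for Opa1, -0.53 for Mfn2, -0.41 for Dnm1l, -0.36 for Afg3l2 and -0.26 for Mfn1. It was 0.12 for Slc25a46, 0.17 for Spg7, 0.41 for Opa3, 0.61 for Rtn4ip1 and 0.95 for Tmem126a. These directions hold for CPM. On the length-scaled values given further on, 8 of the 10 members, Spg7 included, were lowest in this retina. The coefficient of variation of CPM over the 6 retinas was 34.7% for Tmem126a and 25.8% for Opa1, and 16.8% and 16.4% over the 5 retinas without it. For Slc25a46 it was 11.6% and 12.7%, and for Spg7 8.37% and 7.74%. The SD of log2 CPM was larger among mutant than among WT retinas for 8 of the 10, the others being Spg7 and Slc25a46.

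The departure ran with gene length. Over the 10 members Spearman's rank correlation between the departure of Wfs1-KO replicate 2 and the exon length was -0.70, and over all tested genes it was -0.40. In the other 5 retinas it was -0.04 to 0.60 over the members and -0.25 to 0.32 over all genes. Each of these was set against a mean that includes Wfs1-KO replicate 2, so they are not independent of that retina. The points of such a correlation share 1 library and its depth, and each is given as a description. Afg3l2 and Spg7, of 3094 and 3168 exon bases, departed in opposite directions at nearly the same length. The part of length in the members' values was not tested.

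**Figure D3:**
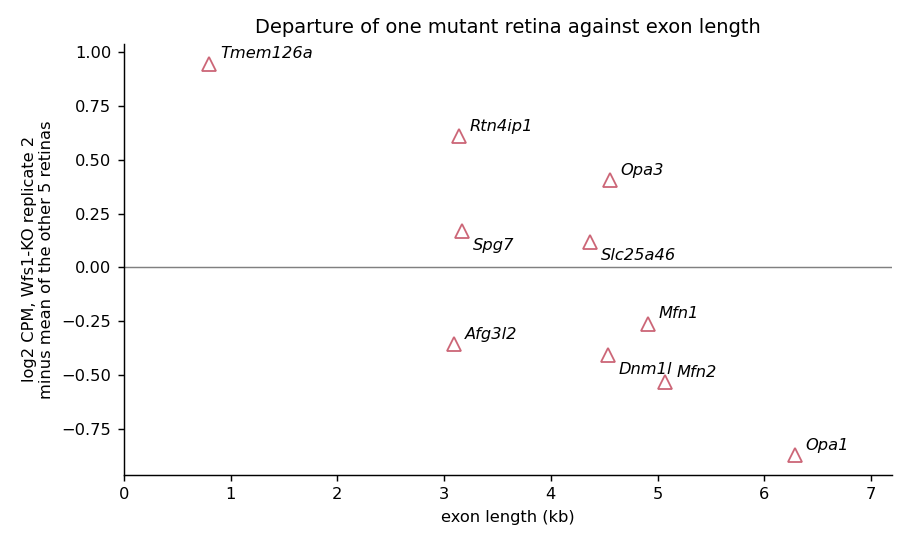
Log2 CPM in Wfs1-KO replicate 2 minus the mean of the other 5 retinas (vertical) against the exon length of the gene in kb (horizontal), 1 triangle per gene. Values go from 0.95 for Tmem126a, the shortest, to -0.87 for Opa1, the longest.

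To compare levels between genes, counts were scaled per exon base to TPM, the share of length-scaled counts that a gene takes in its library. Spg7 was the highest, with a mean of 111 ± 13.5 TPM over the 6 retinas (SD), followed by Mfn2 with 103 ± 25.6 and Dnm1l with 101.2 ± 25.3 TPM. These 3 lay at percentiles 90.6 to 91.7 of the tested genes. A middle group held Afg3l2 at 57.2 ± 12.3, Tmem126a at 54.6 ± 9.33, Opa3 at 52.5 ± 4.42, Opa1 at 42.4 ± 14.98, Mfn1 at 41.2 ± 8.21 and Slc25a46 at 35.2 ± 5.89 TPM. Rtn4ip1 was the lowest, with 9.68 ± 1.09 TPM, at percentile 45.2.

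Neighbours in that order were compared within each retina. Of the 9 pairs, 2 had the same sign in 6 of 6 retinas: Dnm1l was above Afg3l2 by 0.81 on the log2 TPM scale, and Slc25a46 was above Rtn4ip1 by 1.85. Each gave p = 0.03125 in an exact two-sided sign-flip permutation test, the smallest p that 6 retinas allow, and after Benjamini-Hochberg adjustment over the 9 pairs it was 0.141. No pair passed the adjusted threshold, and the other 7 pairs gave exact permutation p-values from 0.0938 to 0.875. The order inside the top 3 and inside the middle group was thus not resolved by these retinas. The order was itself taken from the same retinas. A pair at the smallest possible p passes after adjustment over the 9 pairs only if many other pairs reach it too. On the TPM scale Wfs1-KO replicate 2 was the lowest retina for 8 of the 10 genes, Spg7 and Opa3 included, which were highest there in CPM. The exon length behind a count, as the harmonic mean over counts, was 2016 bases in that library and 2694 to 2989 bases in the other 5, a quantity that TPM scales with and CPM does not.

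**Figure D4:**
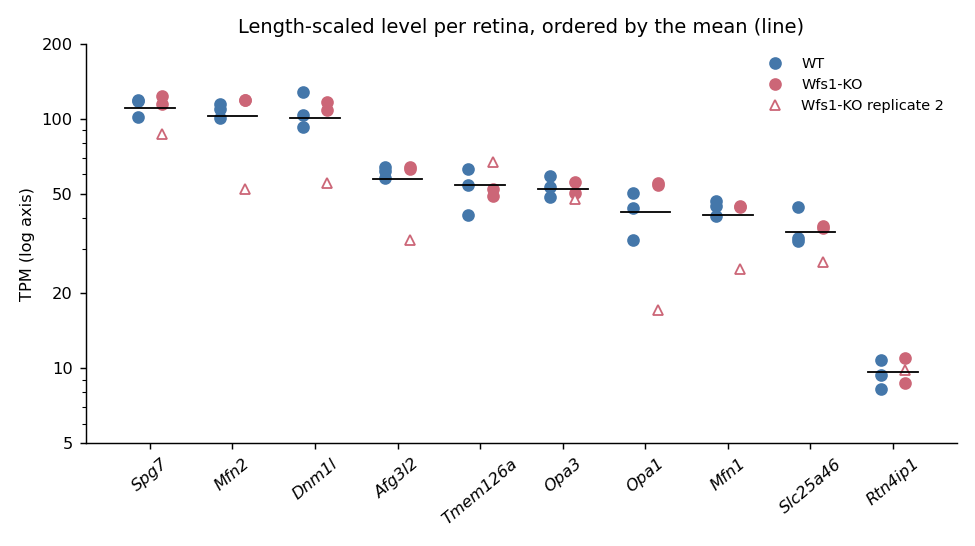
TPM of each gene in each retina on a log axis, ordered by the mean of the 6 retinas (line), with WT in blue, Wfs1-KO in red and Wfs1-KO replicate 2 as an open triangle. The top 3 genes have means of 101.2 to 111 TPM and Rtn4ip1 lies at 9.68 TPM, while the triangles fall below the other points for 8 of the 10 genes.

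Ratios within a retina do not depend on the scaling between libraries, and 4 were compared. A departure that differs between the genes of a pair stays in their ratio, and Wfs1-KO replicate 2 was at an end of the range for each ratio. Opa1 and Dnm1l have 6284 and 4535 exon bases, and the part of length in the ratios was not tested. The Opa1 to Dnm1l ratio of TPM, which sets inner membrane fusion beside fission, was 0.351, 0.395 and 0.423 in WT and 0.510, 0.308 and 0.465 in Wfs1-KO retinas, where replicate 2 was again the lowest of all. The difference, Wfs1-KO minus WT, was 0.11 on the log2 scale (exact two-sided permutation test, p = 0.7), and 0.33 without Wfs1-KO replicate 2. Mfn2 exceeded Mfn1 by 1.29 ± 0.12 in WT and 1.30 ± 0.20 in Wfs1-KO retinas on the log2 scale (SD, n = 3 each), a difference of 0.0098 (exact permutation test, p = 0.9), which was 0.13 without Wfs1-KO replicate 2. For Afg3l2 over Spg7, which both encode m-AAA subunits, the log2 ratio was -0.88 ± 0.15 in WT and -1.08 ± 0.30 in Wfs1-KO retinas (exact permutation test, p = 0.5). The difference of -0.19 became -0.02 without that retina. Oma1 and Yme1l1 encode the proteases that cut OPA1, and their log2 ratio was -1.73 ± 0.24 in WT and -1.41 ± 0.31 in Wfs1-KO retinas (exact permutation test, p = 0.3), and the difference of 0.31 became 0.14 without that retina. After adjustment over the 4 ratios every p was 0.9, and 3 retinas against 3 cannot give less than 0.1 unadjusted.

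The genes whose pattern over the 6 retinas lay nearest to that of Opa1 were Rapgef6, Atf7 and Tmtc2, by the root mean square difference of centred log2 CPM, at 0.033, 0.036 and 0.038. Their exon lengths were 8931, 9180 and 5629 bases. Among the members the nearest was Dnm1l at 0.242, at rank 2525 of all tested genes, and the farthest was Tmem126a at 0.746.

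The genes of 7 related lists were read from the same test. They held 104 genes, all of which were tested, and 0 were called by edgeR on 6 retinas, against 0.0108% of all tested genes. At an unadjusted p under 0.05 there were 2, both lower, Wfs1 itself and Cisd2. Of all 18547 tested genes 105 were lower and 416 higher at that level, 2.81% in both directions together. Genotypes did not overlap for 8 of the 104, against 8.96% of all tested genes. The genes named from each list below were picked by their small unadjusted p in these same data. That choice favours genes whose genotypes do not overlap. The lists' medians lay between -0.13 and 0.18 on 6 retinas and between -0.15 and 0.05 without Wfs1-KO replicate 2, where 1 gene, Wfs1, was called. In that fit 7 of the 104 genes, Wfs1 among them, were lower at an unadjusted p under 0.05 and 0 were higher. Of all 19178 genes tested in that fit 458 were lower and 537 higher, 5.19% in both directions together.

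Among the other inherited optic neuropathy genes Cisd2 is named because, after Wfs1, it had the smallest unadjusted p of its list. Cisd2 is the gene of the second form of Wolfram syndrome and encodes an iron-sulfur protein of the endoplasmic reticulum and mitochondria. It had 100.6, 112 and 82.6 CPM in WT and 64.8, 77.3 and 66.0 CPM in Wfs1-KO retinas, with no overlap. Its log2 fold change was -0.51 (SE 0.18, with an edgeR adjusted p of 0.979), and it was -0.60 (SE 0.15, with an edgeR adjusted p of 0.416) without Wfs1-KO replicate 2. The difference did not pass the threshold in either fit. The 17 genes of this list had a median of 0.09, and -0.15 without that retina.

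Among 14 further fission and fusion regulators, with a median of 0.05, Mief1 encodes an outer membrane receptor that recruits DRP1. Mief1 had 43.1, 42.8 and 45.0 CPM in WT and 36.2, 34.6 and 34.6 CPM in Wfs1-KO retinas. The groups did not overlap, and the log2 fold change was -0.31 both with all 6 retinas (SE 0.15, with an edgeR adjusted p of 0.979) and without Wfs1-KO replicate 2 (SE 0.13, with an edgeR adjusted p of 0.903). Fis1, another outer membrane protein of fission, had a log2 fold change of 0.60 that was -0.11 without that retina, where it stood at 255 CPM against 86.4 to 113 CPM in the other 5.

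Each of the other lists gave no call. The list of inner membrane proteases and prohibitins held 14 genes, some of them for matrix proteins such as Lonp1, Clpp and Clpx. Its median was 0.05 on 6 retinas and -0.10 without Wfs1-KO replicate 2. The 2 genes with the smallest unadjusted p there were Yme1l1, at -0.28 and -0.17 without that retina, and Immp2l, at 0.53 and -0.01. A list of 11 genes was read for the MICOS complex, which shapes the crista junctions together with OPA1. It also held Samm50, Mtx1, Mtx2 and Dnajc11, which do not encode MICOS subunits. The list had a median of 0.18, the highest of the lists, and -0.08 without that retina. Its leading genes by unadjusted p were Chchd6, at 0.77 and 0.16, and Mtx1, at 0.47 and 0.14, on 6 and on 5 retinas.

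The 17 mitophagy genes had a median of -0.05, and -0.01 without Wfs1-KO replicate 2. Pink1, the kinase that marks damaged mitochondria for removal, had 425, 317 and 376 CPM in WT and 444, 624 and 426 CPM in Wfs1-KO retinas, which did not overlap, although replicate 3 of the mutant and replicate 1 of WT were nearly level. Its log2 fold change was 0.42 (SE 0.22, with an edgeR adjusted p of 0.979), and 0.22 without that retina, and that of Tax1bp1, an autophagy receptor, was -0.18 and -0.14. The 11 transport genes had a median of -0.13, with 10 of 11 below 0, beside 8756 of all 18547 tested genes. Without Wfs1-KO replicate 2 their median was 0.05, so that most of them were then above 0. Armcx3 stood at -0.25 and at 0.0051 without that retina, and Rhot1, which encodes a mitochondrial GTPase of axonal transport, at -0.15 and at -0.06 without it.

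The 20 genes of mitochondrial biogenesis and content had a median of 0.01 on 6 retinas and -0.05 without Wfs1-KO replicate 2. Twnk, the helicase of mitochondrial DNA replication, had 17.2, 16.5 and 16.9 CPM in WT and 14.0, 14.5 and 13.2 CPM in Wfs1-KO retinas. These did not overlap, and the log2 fold change was -0.28 (SE 0.16, with an edgeR adjusted p of 0.979), and -0.31 without that retina. Ppargc1b, a coactivator of mitochondrial genes, was at 0.44, and at 0.18 without it.

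**Figure D5:**
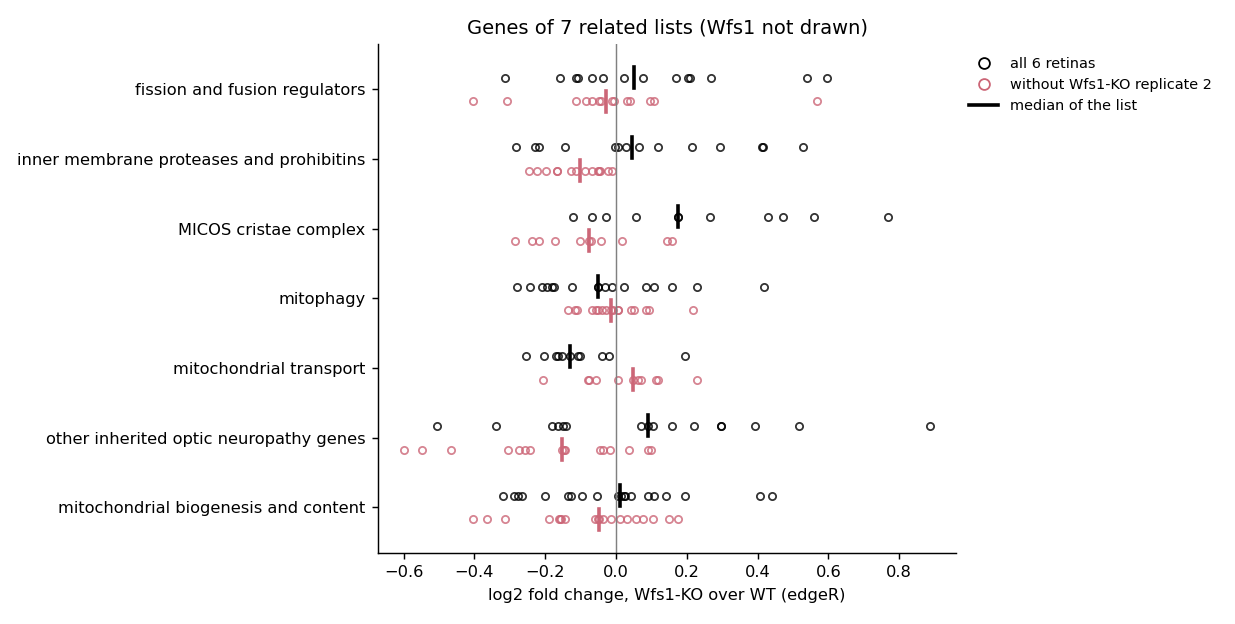
Log2 fold change of Wfs1-KO over WT for the genes of 7 related lists, on all 6 retinas in black and without Wfs1-KO replicate 2 in red, with bars at each list's median (Wfs1 counts in its list's median but is not drawn). Black medians range from -0.13 for the transport list to 0.18 for the MICOS list, and red ones from -0.15 to 0.05.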

How the data were processed

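Whole retinas were sequenced from 3 WT and 3 Wfs1-KO mice at 240 days. The submitters' processing notes list Trimmomatic 0.39, STAR 2.5.3a, featureCounts 1.6.4 and the mm10 build, while the study's methods give other versions of the first 2 tools. The RNA was purified with a phenol reagent per the labels and with a column kit per the methods. The authors deposited raw read counts over exons for each gene, without normalization, and the exon length. Columns were matched to samples by the letter (C for control, W for Wfs1) and replicate number in their names, while 2 further columns fitted none of the listed samples and were left out.

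From these counts, CPM was computed with TMM factors and TPM from the deposited exon length. Genes were filtered with filterByExpr and tested with edgeR 4.0.16 (R 4.3.3), with genotype as the only term and Benjamini-Hochberg adjustment; limma 3.58.1 and DESeq2 1.42.0 gave alternatives. The study's methods name DESeq2. The standard error is the log2 fold change over the square root of F. Scripts were tested on simulated data. Named genes were the members, Wfs1, the 2 genes of each list with the smallest unadjusted p, and the 3 nearest to Opa1, with Oma1 named for its ratio to Yme1l1, a comparison set beside that rule. Sums of the blood and rod marker lists are not reported here. The members and lists were chosen with earlier results of these data known. A count of 3 corresponds to 0.0291 to 0.170 CPM, depending on the library, and counting error only is covered by that floor. No pair of libraries agreed within sampling noise. Members shared 100 bases at 95% identity only with transcripts of the opposite-strand genes that overlap Dnm1l and Slc25a46.

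Pairing by replicate number was not seen: deviations of same-numbered retinas from their group means correlated at -0.23, -0.11 and 0.08. Pairing was not excluded, because Wfs1-KO replicate 2 is part of the mean behind every mutant deviation. The alternatives were DESeq2, limma-voom with and without quality weights, 2 other normalizations, 2 other filters, a replicate block and leaving out each library.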

Additional observations from a re-analysis of the deposited data

How the results depend on the processing

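No member passed an adjusted p of 0.05 in any of 16 fits, and of 150 log2 fold changes under 15 alternatives 26 lay on the other side of 0 from the reported value. For Opa1 these were -0.0045 with DESeq2, -0.051 with limma-voom, -0.0036 with RLE normalization, -0.0025 without a filter and -0.044 with the replicate block, which called 0 of 10 members and gave a median of -0.032. Pairing by replicate number was not seen, but it was not excluded. With voom quality weights the values were -0.064 for Opa3, 0.021 for Mfn2, -0.0017 for Spg7, -0.10 for Tmem126a, -0.079 for Rtn4ip1, -0.022 for Fis1 and -0.0034 for Immp2l. With DESeq2 without Wfs1-KO replicate 2 they were -0.13, 0.031, -0.027, -0.17, -0.061, -0.11 and -0.014 for the same genes, and 0.0048 for Armcx3, with a median of -0.053 over the members. Leaving out each library in turn gave ranges from -0.16 to 0.28 for Opa1, -0.13 to 0.16 for Opa3, -0.22 to 0.031 for Mfn2, -0.039 to 0.11 for Spg7, -0.17 to 0.46 for Tmem126a, -0.059 to 0.36 for Rtn4ip1, -0.14 to 0.11 for Slc25a46, -0.11 to 0.85 for Fis1, -0.011 to 0.77 for Immp2l and -0.44 to 0.0051 for Armcx3. The median of the members ranged from -0.083 to 0.0013, the log2 ratio difference of Mfn2 to Mfn1 from -0.055 to 0.13 and that of Opa1 to Dnm1l from -0.036 to 0.33. Of the 10 ranks by mean TPM, 6 to 10 stayed the same when 1 library was left out, 4 in WT retinas only and 1 in CPM without length scaling, a construction that favours long genes. The cause of the other shifts was not tested. Mfn1, Afg3l2 and Dnm1l were below 0 in all 16 fits. With 3 retinas per genotype, differences inside the stated intervals were not excluded. Larger ones could also miss the adjusted threshold, as Wfs1 did at -3.15 on 6 retinas (edgeR adjusted p = 0.979). Wfs1-KO replicate 2 raised the common dispersion from 0.0322 to 0.128.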
